A study of Capra hircus with 3 samples.

Results

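The genes described here carry the insulin signal from its receptor through mTOR to the translation machinery. They were 10 listed genes, the insulin receptor INSR, its docking proteins IRS1 and IRS2, the kinases PIK3CB, AKT1 and MTOR, the mTOR partners RPTOR and DEPTOR, and the translation regulators RPS6KB1 and EIF4EBP1. Rows of the deposited expression values were chosen by the goat NCBI gene ID of each symbol, and 8 of the 10 IDs had a row, with 1 locus each, among 13023 protein-coding genes and 50041 loci in all. IRS2 (ID 108637286) and EIF4EBP1 (ID 100861234) matched no row and were not analysed here.

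The tissue was mammary gland of lactating Laoshan dairy goats, adult animals of one age and parity. It was sampled by surgery at 10 days (early), 90 days (peak) and 210 days (late) after parturition. The goats were under general anesthesia with xylazine, and the paper names no other treatment. The RNA of 5 goats was pooled into 1 library per stage, so the spread between goats is not measured, no test was possible and no p-value is given. By the study's methods the same 5 goats gave tissue at all 3 stages, so the pools are not independent sets of animals. Later samples followed earlier surgery on the gland, and its part cannot be told apart from that of stage. The deposited values are FPKM, fragments scaled by transcript length and by the mapped reads of the library, which allow levels of genes of different length to be set side by side. Read numbers per gene were not used here, so the depth of single FPKM is unknown and intervals cannot be given. A gene counts as 2-fold apart on the ratio of its FPKM alone, and "higher" and "lower" describe these 3 libraries only.

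Insulin binding switches on the receptor kinase, which phosphorylates IRS proteins. These recruit PI3-kinase, whose lipid product brings AKT to the membrane to be activated. AKT releases the brake that the TSC complex holds on RHEB, and RHEB with amino acid signals at the lysosome activates mTOR complex 1, built of MTOR, RPTOR and MLST8. This complex phosphorylates S6 kinase (RPS6KB1) and the eIF4E binding proteins, and so favours cap-dependent translation. In the lactating gland the pathway is known for its part in milk protein synthesis, where insulin and amino acids act together. Much of its control lies in phosphorylation, which RNA levels do not show.

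The stage labels need care. Stages were taken from the sample labels, but across 99 lncRNA genes matched by RefSeq accession, the log2 ratio of the peak-labelled over the early-labelled column had a Pearson correlation of 0.84 with the ratio of the L over the E library in the supplementary lncRNA values, against -0.11 for the late-labelled column. For the P over the E library, over 42 genes, the coefficients were -0.15 for the peak-labelled and 0.62 for the late-labelled column. For the L over the P library, over 107 genes, the ratio of the late-labelled over the peak-labelled column had a coefficient of -0.88. For each pair of libraries, the genes compared were lncRNAs that the study listed as differing between them. That choice can raise the coefficients. All these ratios are across genes and share libraries. The library labelled peak thus followed the study's L library and that labelled late its P library. Below, libraries carry the names of their labels, and if the columns are exchanged, every value given for the peak-labelled library belongs to late lactation and every value for the late-labelled library to peak lactation.

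The 3 libraries also differed in composition. The median log2 ratio over protein-coding genes that reached 1 FPKM in both libraries compared was -0.03 for peak over early, -0.01 for late over early and 0.03 for late over peak. The summed FPKM of protein-coding genes, however, was 478221 in the early-labelled, 275836 in the peak-labelled and 421182 in the late-labelled library. Of 7 secretory milk genes, all 7 were at least 2-fold lower in the peak-labelled than in the early-labelled library, against 6.8% of 13020 protein-coding genes. Their summed level was 126407, 33539 and 75107 FPKM in the early-, peak- and late-labelled libraries, with LALBA listed at 0 in the last. Without LALBA it was 56354, 18325 and 75107 FPKM, and 6 of the 7 genes were higher in the late- than in the early-labelled library. The summed level of 7 luminal epithelial markers was 1592, 994 and 1540 FPKM, but ELF5 alone had 879, 244 and 875 FPKM. The other 6 summed to 713, 751 and 665 FPKM, and KRT8, KRT18 and CDH1 were highest in the peak-labelled library. The sum over 6 basal and myoepithelial markers was 259.7, 254.7 and 263.5 FPKM. That over 6 leucocyte markers was 305, 502 and 357 FPKM, most of it JCHAIN, and 38.6, 73.1 and 20.0 FPKM without JCHAIN. Among these, PTPRC had 17.6, 39.9 and 8.08 FPKM, and CD3E was listed at 0 in the early- and peak-labelled libraries. The 4 adipocyte markers with a row summed to 569, 107 and 728 FPKM, of which FABP4 made up 551, 101 and 722 FPKM, and without it the sum was 18.1, 5.85 and 6.41 FPKM. Of 6 fibroblast markers, COL1A2 (138, 65.8 and 106 FPKM) and COL3A1 (255, 123 and 219.8 FPKM) were over 2-fold lower in the peak- than in the early-labelled library, and PDGFRA (13.7, 28.0 and 11.3 FPKM) was over 2-fold higher. Of 5 endothelial markers, 0 were 2-fold apart. The part of these shifts in the results below was not tested. In whole tissue, fewer cells of a type and less RNA per cell cannot be told apart.

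INSR, the receptor itself, was the most even of the 8 genes in FPKM as deposited. It had 36.7 FPKM in the early-labelled library, 34.7 FPKM in the peak-labelled and 36.8 FPKM in the late-labelled library. Its level exceeded that of 91.3%, 92.8% and 91.1% of protein-coding genes. The log2 ratio was -0.08 for peak over early and 0.00 for late over early. When the libraries were divided by their sum of protein-coding genes, its range over the 3 libraries was 0.71 on the log2 scale and AKT1, at 0.21, was the most even, and with all loci but the most abundant in the sum it was MTOR, at 0.29. The INSR locus lies on scaffold NW_005100713.1 from 2212651 to 2340026, in an assembly the deposited values do not name.

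IRS1, the docking protein that couples the receptor to PI3-kinase, had the widest range of the 8 genes in FPKM as deposited, with a log2 range of 1.51 against 0.96 for DEPTOR. DEPTOR had the widest range when the libraries were divided by the sum of protein-coding genes, at 1.57 against 0.90 for IRS1, and by the sum without the most abundant locus, at 1.36 against 1.12. IRS1 had 21.1 FPKM in the early-labelled library, 9.99 FPKM in the peak-labelled and 28.5 FPKM in the late-labelled library. It was lowest in the peak-labelled library, 2.12-fold below the early-labelled one with a log2 ratio of -1.08, and the late-labelled library was 2.85-fold above the peak-labelled one with a log2 ratio of 1.51. Between the early- and late-labelled libraries the log2 ratio was 0.43. The share of protein-coding genes with a lower level moved from 82.5% in the early-labelled to 62.3% in the peak-labelled and 87.7% in the late-labelled library. Set against its own receptor in the same library, which no scaling between libraries can change, the IRS1 level was 0.577 of that of INSR in the early-labelled, 0.288 in the peak-labelled and 0.774 in the late-labelled library. The locus lies on scaffold NW_005100623.1 from 16993587 to 17057326.

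PIK3CB, a catalytic subunit of PI3-kinase, was low, with 3.11, 4.11 and 3.80 FPKM in the early-, peak- and late-labelled libraries (scaffold NW_005100609.1 from 19641282 to 19767997). Its log2 ratios were 0.40 for peak over early and -0.11 for late over peak. Of the summed FPKM of the 4 class I catalytic subunit genes, PIK3CB made up 12.1%, 11.7% and 12.4%, while PIK3CA made up 51.3%, 43.3% and 46.8%.

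AKT1, the kinase at the centre of the pathway, had the highest level of the 8 genes in every library. It had 90.0 FPKM in the early-labelled, 49.8 FPKM in the peak-labelled and 88.1 FPKM in the late-labelled library. The peak-labelled library thus stood apart from the other two, which differed by a log2 ratio of -0.03. The log2 ratio of peak over early was -0.85, a 1.81-fold lower level, and that of late over peak 0.82, both short of 2-fold. This distance depended on the scale, and for peak over early it was -0.33 without the most abundant locus in the sum and -0.06 on the scale of the protein-coding sum. The AKT1 level was 4.09, 2.99 and 4.47 times that of its paralog AKT2, which had 22.0, 16.7 and 19.7 FPKM. The AKT1 locus spans 5280 nt on scaffold NW_005100907.1 from 6638054 to 6643333, the shortest locus of the 8.

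**Figure D1:**
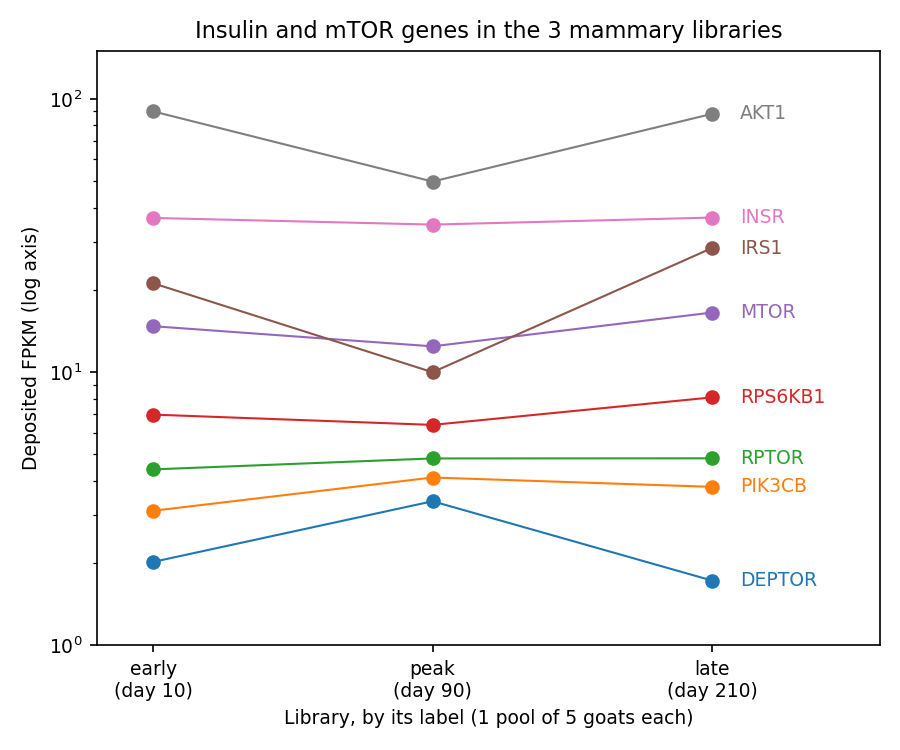
Deposited FPKM (log axis) of the 8 genes with a row, 1 point per gene and library, placed by the label of the library; each library is 1 pool of 5 goats and there are no error bars. IRS1 (21.1, 9.99 and 28.5 FPKM) and AKT1 (90.0, 49.8 and 88.1 FPKM) were lowest in the peak-labelled library, where DEPTOR (2.02, 3.37 and 1.73 FPKM) was highest.

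MTOR, the kinase of both mTOR complexes, had 14.7 FPKM in the early-labelled, 12.4 FPKM in the peak-labelled and 16.5 FPKM in the late-labelled library (scaffold NW_005100846.1 from 7138281 to 7261407). Its log2 ratios were -0.24 for peak over early, 0.17 for late over early and 0.41 for late over peak. RPTOR, which presents substrates to complex 1, had 4.40, 4.83 and 4.84 FPKM (scaffold NW_005100886.1 from 27183886 to 27503972), and log2 ratios of 0.13 for peak over early, 0.13 for late over early and 0.00 for late over peak. The level of RPTOR was 0.299, 0.389 and 0.293 of that of MTOR.

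DEPTOR, an mTOR-binding protein that restrains the kinase, had the lowest level of the 8 genes in every library. Its level was highest in the peak-labelled library, where those of IRS1 and AKT1 were lowest. It had 2.02 FPKM in the early-labelled, 3.37 FPKM in the peak-labelled and 1.73 FPKM in the late-labelled library. The log2 ratio was 0.74 for peak over early, a 1.67-fold higher level, and -0.96 for late over peak, both short of 2-fold. Relative to MTOR in the same library, the DEPTOR level was 0.137, 0.271 and 0.105. The locus lies on scaffold NW_005100812.1 from 43094441 to 43212165. Another inhibitory subunit, AKT1S1 (PRAS40), did not share this pattern, with 5.50, 2.70 and 5.85 FPKM and a level of 0.374, 0.217 and 0.354 of that of MTOR.

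RPS6KB1, the S6 kinase, had 6.99, 6.41 and 8.08 FPKM in the early-, peak- and late-labelled libraries (scaffold NW_005100834.1 from 194065 to 205232). Its log2 ratios were -0.13 for peak over early and 0.33 for late over peak. The level was 0.475, 0.516 and 0.489 of that of MTOR, so these genes kept nearly the same ratio in the 3 libraries.

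**Figure D2:**
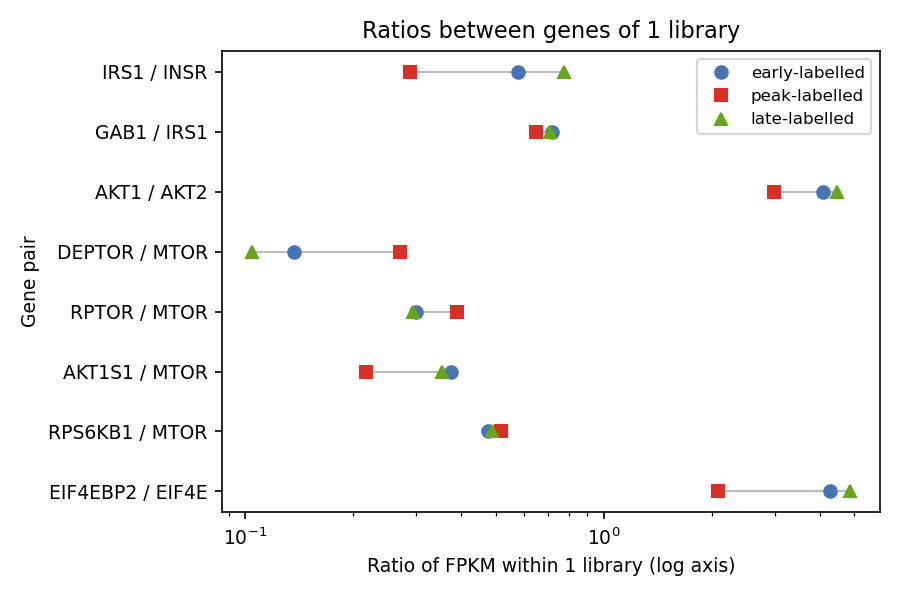
Ratio of the FPKM of 2 genes within the same library (log axis) for 8 gene pairs, with 1 marker per library and no error bars. The ratio of IRS1 to INSR was lowest in the peak-labelled library (0.288) and that of DEPTOR to MTOR highest there (0.271), while that of RPS6KB1 to MTOR lay between 0.475 and 0.516.

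In every library AKT1 was the highest of the 8 genes, INSR the next and DEPTOR the lowest. In the early- and late-labelled libraries the order below INSR was IRS1, MTOR, RPS6KB1, RPTOR, PIK3CB and DEPTOR. In the peak-labelled library MTOR (12.4 FPKM) stood above IRS1 (9.99 FPKM), and the order was otherwise the same. Since each library is 1 pool, it is not known which neighbours in this order differ beyond the spread between goats. The highest level was 44.6 times the lowest in the early-labelled, 14.8 times in the peak-labelled and 51.1 times in the late-labelled library.

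Of the 8 genes, 1 (IRS1) was at least 2-fold lower in the peak-labelled than in the early-labelled library and 0 were 2-fold higher, while 6.8% of 13020 protein-coding genes were 2-fold lower and 10.9% higher. Between early and late, 0 of 8 were at least 2-fold apart, against 8.71% of 13004 protein-coding genes in either direction (1.97% higher and 6.74% lower). Between peak and late, 1 (IRS1) was 2-fold higher in the late-labelled library and 0 were 2-fold lower, against 8.56% and 17.4% of 13015 genes. That call was lost on the scale of the protein-coding sum, where IRS1 stood at 0.90 and DEPTOR, at -1.57, was 2-fold lower in the late-labelled library. Without the most abundant locus in the sum, both were past 2-fold, at 1.12 and -1.36. At a fold of at least 1.5, IRS1, AKT1 and DEPTOR were apart in both comparisons with the peak-labelled library, against 36.8% of protein-coding genes for peak over early and 44% for late over peak, and 0 of 8 were apart for late over early, against 17.8%. With 8 genes these shares are too coarse to be set apart from the background. The median log2 ratio of the 8 genes was -0.10, 0.15 and 0.21 for peak over early, late over early and late over peak, beside 0.01, -0.03 and -0.03 over the protein-coding genes above 0 in either library. Of the 8 genes, 5 were lowest in the peak-labelled library (INSR, IRS1, AKT1, MTOR and RPS6KB1), as were 41.2% of 13023 protein-coding genes, and this number was 3, 2 and 2 when the libraries were divided by their sum of all loci, by that without the most abundant locus and by that of protein-coding genes, against 34.6%, 15.5% and 8.51% of protein-coding genes.

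**Figure D3:**
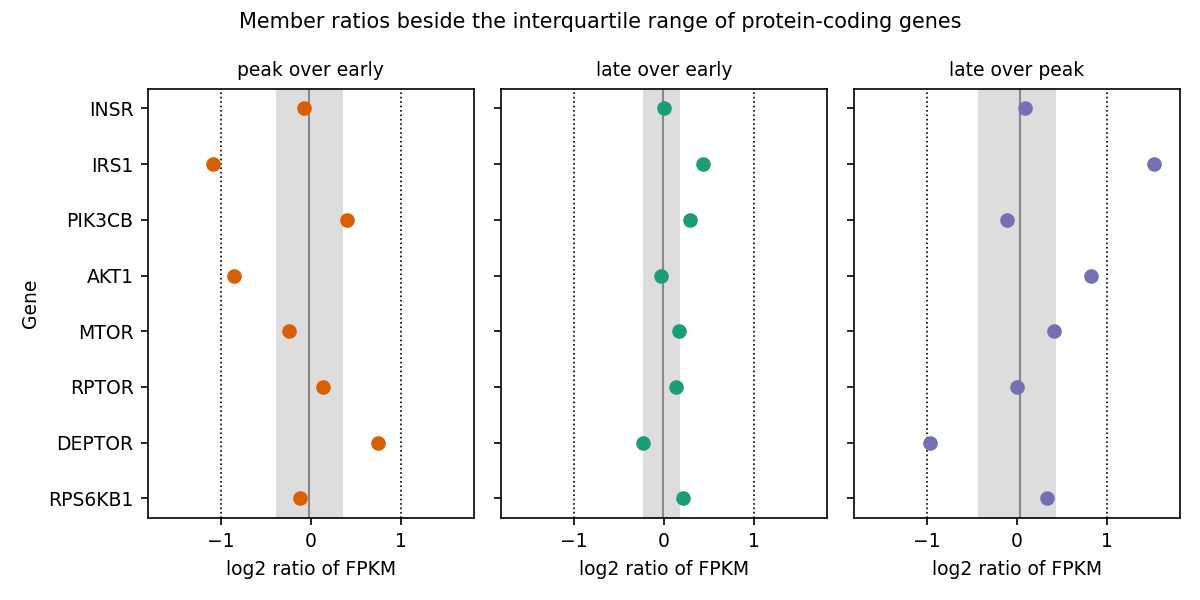
log2 ratio of deposited FPKM for the 8 genes in the 3 comparisons between libraries, 1 point per gene; the grey band is the range between the quartiles of protein-coding genes that reached 1 FPKM in both libraries, the grey line their median, and the dotted lines mark 2-fold. IRS1 passed 2-fold in both comparisons with the peak-labelled library, with log2 ratios of -1.08 and 1.51.

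These ratios depend on how the libraries are brought to one scale. Counts and ratios elsewhere in the text use FPKM as deposited unless another scale is named. With these, or centred on the median of protein-coding genes, the log2 ratio of IRS1 for peak over early was -1.08 and -1.06. It was -0.94 when each library was divided by the FPKM sum of all its loci, -0.56 when the most abundant locus, at 30.0%, 46.0% and 29.9% of that sum, was left out of it, and -0.29 when divided by the sum of protein-coding genes. The last of these scales moved the median protein-coding gene to 0.77 for peak over early, and the one without the most abundant locus to 0.49. On the scale of the protein-coding sum, DEPTOR (1.53) and PIK3CB (1.20) were more than 2-fold higher in the peak-labelled than in the early-labelled library, as were 37.1% of protein-coding genes, while 1.99% were 2-fold lower, and INSR, MTOR and RPS6KB1 turned from a negative to a positive ratio, at 0.71, 0.55 and 0.67. IRS1 and AKT1 stayed below 0 and DEPTOR, PIK3CB and RPTOR above 0 for peak over early on all 5 scales, AKT1 by only 0.06 on the last.

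**Figure D4:**
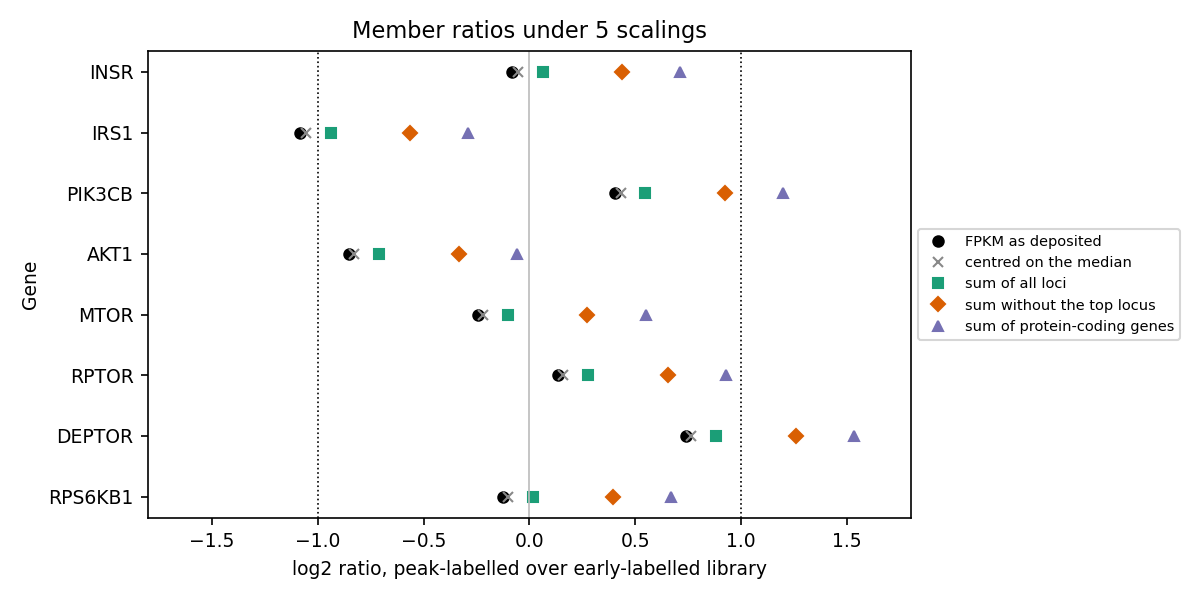
log2 ratio of the peak-labelled over the early-labelled library for the 8 genes on 5 scales, 1 marker per scale; dotted lines mark 2-fold. Each scale moves all 8 genes by the same amount, so IRS1 ran from -1.08 to -0.29 and DEPTOR from 0.74 to 1.53 while the distances between genes did not change.

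The genes whose pattern was most like that of IRS1 were sought among 11086 protein-coding genes with at least 1 FPKM in all 3 libraries, by the larger of the differences in the log2 ratios of peak over early and of late over early. The closest were PMVK, a kinase of the mevalonate pathway, and LOC102169654, with differences of 0.01 and 0.02, followed by ARL15 (0.03), LOC102178801 (0.04) and LOC102191533 (0.05). PMVK had 11.6, 5.53 and 15.7 FPKM in the early-, peak- and late-labelled libraries, and ARL15, a small GTPase, 21.7, 10.5 and 29.9 FPKM. In all, 30 genes lay within 0.1 of IRS1. With 3 libraries such a likeness rests on 2 ratios.

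No other locus overlapped those of the 8 genes. The annotated neighbours of IRS1 did not show its pattern. RHBDD1, 32803 nt from IRS1 on its higher-coordinate side, had 9.53, 13.5 and 11.1 FPKM. On the other side the nearest locus with a single gene ID was DOCK10, at 1850991 nt, with 5.57, 12.9 and 3.07 FPKM. Genes without such a row may lie closer. COL14A1, a collagen gene 75445 nt from DEPTOR, had 12.9, 18.2 and 11.0 FPKM and was, like DEPTOR, highest in the peak-labelled and lowest in the late-labelled library. TAF2, on the other side of DEPTOR at 67317 nt, had 12.2, 15.0 and 12.6 FPKM. It was also highest in the peak-labelled library, but lowest in the early-labelled one.

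Around these genes, 137 other genes of the pathway were listed in 10 groups, and 131 of them had a row. For peak over early, 2 of the 131 were at least 2-fold higher and 10 lower, or 9.16% in all, against 17.7% of protein-coding genes in either direction. For late over early, 0 were higher and 3 lower, or 2.29% against 8.71%. For late over peak, 11 were higher and 8 lower, or 14.5% against 25.9%. The medians over the 131 genes were -0.22, -0.04 and 0.25 on the log2 scale. As deposited, 80 of the 131 were lowest in the peak-labelled library, beside 41.2% of 13023 protein-coding genes. On the scale of the protein-coding sum 13 of the 131 were, beside 8.51%. The split of the calls among the 131 depended on the scale. Over all protein-coding genes it grew wider on the scales below but did not turn. As deposited, 10.9% of these were 2-fold higher and 6.8% lower for peak over early, and 8.56% and 17.4% for late over peak. Divided by the sum of protein-coding genes, 23 of the 131 were higher and 1 lower for peak over early, against 37.1% and 1.99% of protein-coding genes. For late over peak, 1 was higher and 17 lower, against 3.41% and 32.6%. Divided by the sum of all loci, the split was 4 higher and 7 lower for peak over early, against 13.8% and 5.21%. With the most abundant locus left out of the sum it was 13 and 1, against 24.2% and 3.01%, and for late over peak 3 and 14, against 4.6% and 25.6%.

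The group counts below, in FPKM as deposited, stand beside 10.9% of protein-coding genes 2-fold higher and 6.8% lower for peak over early. Those shares were 1.97% and 6.74% for late over early, and 8.56% and 17.4% for late over peak. With so few genes per group, the counts are too coarse to be set apart from these shares. Of 15 genes that act with the receptor and PI3-kinase, 0 were 2-fold higher and 1 lower in the peak- than in the early-labelled library. That gene was GAB1, a docking protein like IRS1, with 15.2, 6.48 and 20.2 FPKM. GAB1 followed IRS1 closely, at 0.719, 0.649 and 0.709 of its level in the early-, peak- and late-labelled libraries. PIK3R1, the regulatory subunit of PI3-kinase and the highest of this group, had 62.2, 51.0 and 62.0 FPKM. PIK3CD, the catalytic subunit best known from leucocytes, had 2.66, 4.87 and 1.44 FPKM, a log2 ratio of -1.76 for late over peak. It was highest in the peak-labelled library, as was PTPRC. PIK3CG, another catalytic subunit, had 6.74, 10.9 and 11.0 FPKM and was highest in the late-labelled library, where PTPRC was lowest. Whether leucocyte content had a part in these levels was not tested.

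Of 14 genes that brake insulin signalling, 2 were 2-fold higher and 2 lower for peak over early, and 0 were higher and 2 lower for late over early. SOCS3, a feedback inhibitor of cytokine and insulin receptors, had 4.87, 10.7 and 1.69 FPKM, and its log2 ratios were 1.14, -1.52 and -2.66 for peak over early, late over early and late over peak. INPP5D (SHIP1), an inositol phosphatase of blood cells, had 4.03, 10.9 and 2.08 FPKM, a log2 ratio of 1.43 for peak over early. Both were highest in the peak-labelled library, as was PIK3IP1, an inhibitor of PI3-kinase, with 6.47, 10.8 and 4.68 FPKM. SOCS1, another feedback inhibitor, did not follow SOCS3 and had 4.14, 2.04 and 1.29 FPKM. TRIB3, which binds AKT, had 3.85, 1.57 and 2.24 FPKM. PTPN2, a tyrosine phosphatase and the highest of this group, had 28.3, 31.2 and 25.3 FPKM.

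Among 12 targets of AKT, 1 was 2-fold lower for peak over early. It was SLC2A1, the GLUT1 glucose transporter, with 32.2, 14.9 and 35.4 FPKM and log2 ratios of -1.11 for peak over early and 1.25 for late over peak. TBC1D1, a RAB GTPase-activating protein of glucose transporter traffic, had the opposite order with 6.23, 11.6 and 4.13 FPKM. The transcription factor FOXO3 had 21.9, 12.2 and 22.2 FPKM, a log2 ratio of -0.85 for peak over early.

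All 4 genes of the TSC and RHEB step were lowest in the peak-labelled library in FPKM as deposited, against 41.2% of protein-coding genes. On the scale of the protein-coding sum 0 of 4 were, against 8.51%. As deposited, 0 of 4 were 2-fold apart in any comparison. RHEB, the activator of mTOR complex 1, had 59.3, 40.7 and 57.3 FPKM. Of 9 other mTOR complex genes, 2 were 2-fold lower for peak over early and 2-fold higher for late over peak. These were AKT1S1, with log2 ratios of -1.03 and 1.12, and TTI2, a factor for the assembly of mTOR and related kinases, with 9.08, 3.62 and 7.82 FPKM. RICTOR, the defining subunit of complex 2 and the highest of this group, had 20.1, 20.6 and 25.1 FPKM.

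Of 25 genes of the amino acid sensing step, 0 were 2-fold higher and 2 lower for peak over early. RRAGD, a RAG GTPase that brings mTOR complex 1 to the lysosome, had 14.2, 5.21 and 15.6 FPKM, and WDR59, a subunit of the GATOR2 complex, 23.9, 6.24 and 18.2 FPKM. Their log2 ratios for peak over early were -1.45 and -1.94. LAMTOR2, of the lysosomal Ragulator scaffold, had 50.0, 25.4 and 58.5 FPKM, while LAMTOR4 of the same scaffold, the highest of this group, had 58.9, 42.6 and 57.4 FPKM. SESN3, a sestrin and thus an inhibitor of the pathway, was instead highest in the peak-labelled library. It had 21.6, 36.1 and 15.8 FPKM and a log2 ratio of -1.19 for late over peak. Of 9 genes of the energy and stress input, 1 was 2-fold lower for peak over early, PRKAB1, a subunit of the AMP-activated kinase, with 29.7, 10.9 and 21.9 FPKM. STK11 (LKB1), which activates that kinase, had 23.3, 18.5 and 24.2 FPKM.

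Among 21 genes of the cap-binding and S6 kinase branch, 0 were 2-fold higher and 1 lower for peak over early, and 3 were higher and 1 lower for late over peak. EEF2K, the kinase that inactivates elongation factor 2, had 62.2, 26.1 and 65.1 FPKM, with log2 ratios of -1.25 for peak over early and 1.32 for late over peak. Its substrate EEF2, the highest of the group, had 469, 279 and 387 FPKM. EIF4EBP2, a paralog of EIF4EBP1, had 73.6, 38.4 and 93.5 FPKM and was 2.44-fold higher in the late- than in the peak-labelled library. EIF4E, the cap-binding protein that it blocks, had 17.2, 18.4 and 19.2 FPKM, so the ratio of EIF4EBP2 to EIF4E was 4.29, 2.08 and 4.86. EIF4EBP3 had 4.60, 5.03 and 8.14 FPKM. LARP1, an mTOR target that binds mRNAs of ribosomal proteins, had 37.1, 19.9 and 41.0 FPKM, and EIF4E3, a cap-binding paralog, 5.10, 8.86 and 4.25 FPKM.

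In the eIF2 branch, which slows initiation under stress, 0 of 15 genes were 2-fold apart in any comparison as deposited. In FPKM as deposited 10 were lowest in the peak-labelled library, against 41.2% of protein-coding genes. On the scale of the protein-coding sum 0 were, against 8.51%. ATF4, the transcription factor whose translation this branch raises, had 111, 97.4 and 119 FPKM. Of 7 autophagy genes under mTOR control, 0 were 2-fold apart, and RB1CC1, the highest, had 19.9, 16.2 and 21.5 FPKM.

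**Figure D5:**
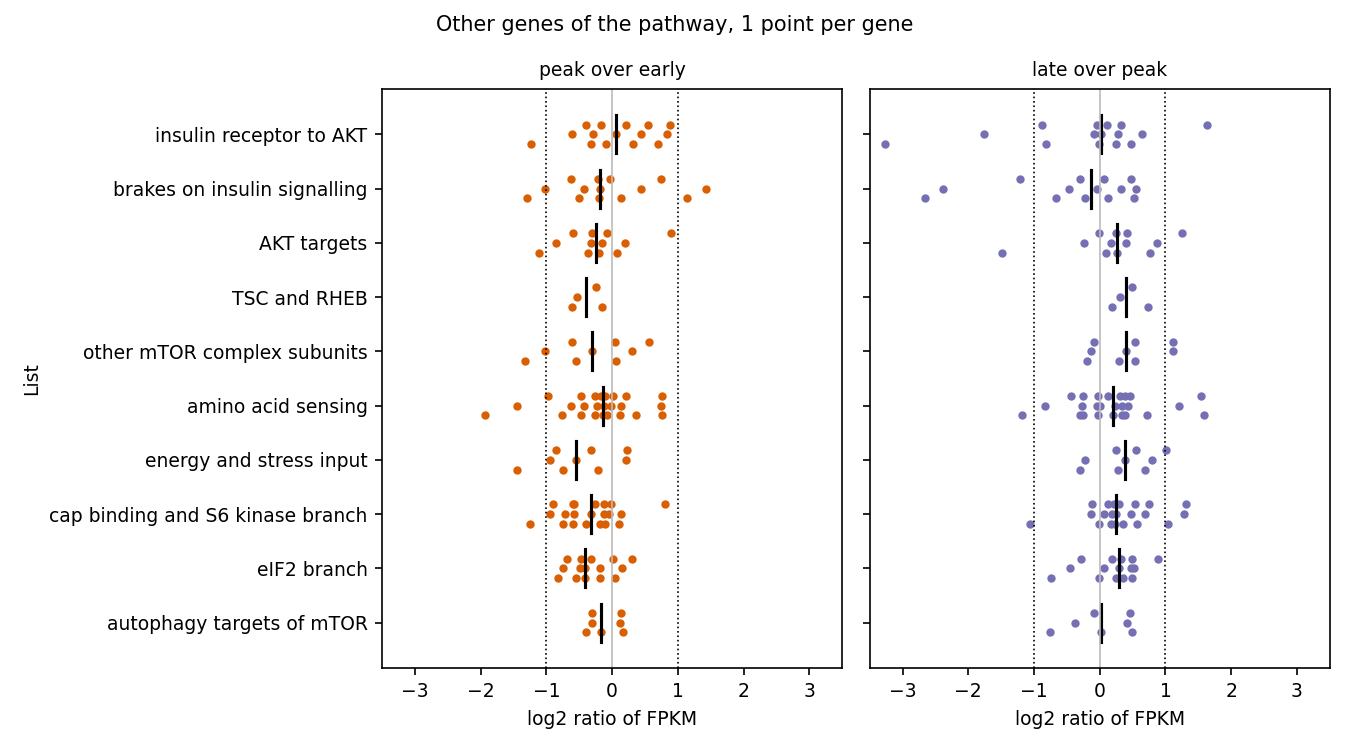
log2 ratio of deposited FPKM for 131 other pathway genes in 10 groups, 1 point per gene, for peak over early (left) and late over peak (right); black bars are group medians and dotted lines mark 2-fold. For peak over early 12 genes lay beyond 2-fold, 10 of them lower in the peak-labelled library.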

How the data were processed

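Per the labels and the study's methods, 3 pooled libraries were made with a stranded kit and sequenced in pairs. The authors filtered reads with Trimmomatic, aligned them with TopHat2 2.0.9, assembled transcripts with Cufflinks 2.1.1 and quantified them with Cuffdiff. The values that the authors deposited are FPKM, and how reads of overlapping or near-identical genes were shared out is not given in the sources used here. Of the deposited values, 46.6% to 52.0% per library end in the digit 5, so each may be a mean of several estimates, which the sources used here do not state.

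Columns were assigned by label. Rows were matched to the ARS1.2 gene table by ID and summed per gene. That gene table gave the names, the class of protein-coding genes and the RefSeq transcripts by which lncRNA genes were matched. Of 15274 loci with 1 gene ID, 14403 matched. No genome or sequence was used. Ratios were taken with an FPKM of 0 set to 0.001. Fold calling was checked on data with known changes.

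The members, groups and alternatives were chosen with earlier results of these data known. Named are all members, other pathway genes at least 2-fold apart with at least 1 FPKM in both libraries, the highest gene of each group, and the 5 genes closest to IRS1. Genes outside this rule (FOXO3, EIF4E, EIF4EBP3, PIK3CA, PIK3CG, AKT2, neighbours and markers) were named after their values were seen, and the gene ratios within a library were also chosen then. CASTOR1, CASTOR2, SAMTOR and FABP4 were sought under other symbols of the table. Some genes of the lists are not reported here by name. Python 3.11.15, numpy 2.4.6, pandas 2.3.3 and matplotlib 3.10.9 were used.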

Additional observations from a re-analysis of the deposited data

How the results depend on the processing

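No paired analysis was possible because there is a single library for each stage, which also leaves no replicate to drop. Division by the FPKM sum without the most abundant locus was chosen after seeing the data; the other settings were listed earlier. A gene's precision is limited by an unknown depth.

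Of the 8 members, 3 were at least 1.5-fold apart for peak over early and 3 for late over peak, and 0 and 0 at least 4-fold, since those thresholds call more or fewer by construction. Of the 131 other genes, 43, 10 and 35 were at least 1.5-fold apart for peak over early, late over early and late over peak, and 0, 1 and 3 at least 4-fold. Divided by the sum of all loci, 0 members were 2-fold apart for peak over early and 3 were lowest in the peak-labelled library. Divided by the sum of protein-coding genes, 2 members and 24 other genes were 2-fold apart for peak over early, against 39.1% of protein-coding genes, and 2 members were lowest in the peak-labelled library. Without the most abundant locus in the sum, 2 members were 2-fold apart for late over peak and 2 were lowest in the peak-labelled library. For peak over early, 1 member was 2-fold apart on that scale, but it was DEPTOR, higher at 1.26, and no longer IRS1, at -0.56. Of protein-coding genes, 24.2% were 2-fold higher there and 3.01% lower. Pseudocounts of 0.1 and 1, a filter at 1 FPKM, a single locus per gene and centring on the median left the member counts as they were. Pseudocount 1 gave 8, 2 and 15 of the other genes.

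With the columns labelled peak and late exchanged, 0, 1 and 1 members and 3, 12 and 19 other genes were 2-fold apart for peak over early, late over early and late over peak, and 1 member was lowest in the peak-labelled library. By construction this exchange turns the sign of every late-over-peak ratio. Among ratios of named genes that were at least 2-fold as deposited, 28 changed sign. For peak over early the log2 ratio became 0.43 for IRS1, 0.41 for GAB1, -0.95 for INPP5D, -1.52 for SOCS3, 0.14 for SLC2A1, 0.089 for AKT1S1, 0.14 for RRAGD and 0.067 for EEF2K. For late over early it became 1.14 for SOCS3. For late over peak it became -1.51 for IRS1, -1.64 for GAB1, 1.76 for PIK3CD, 2.38 for INPP5D, 1.21 for PIK3IP1, 2.66 for SOCS3, 1.49 for TBC1D1, -1.25 for SLC2A1, -1.12 for AKT1S1, -1.11 for TTI2, -1.59 for RRAGD, -1.20 for LAMTOR2, 1.19 for SESN3, -1.55 for WDR59, -1.01 for PRKAB1, -1.29 for EIF4EBP2, 1.06 for EIF4E3, -1.32 for EEF2K and -1.05 for LARP1.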
